A study of Homo sapiens with 6 samples.

Results

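The mRNAs of the splicing machinery were followed through 6 libraries of SK-Hep1 cells, a human line that the labels call hepatocellular carcinoma. The members were all genes of the deposited tables whose symbol began with HNRNP, SNRP, SNRNP, SF3A, SF3B, SRSF or PRPF, together with KHDRBS1, U2AF1 and U2AF2. The rule used names alone and no measured value, but earlier results of these data were known when it was chosen. It gave 75 of 11593 genes and 256 of 28768 transcript rows. Classed by symbol and not by role, they were 21 heterogeneous nuclear ribonucleoproteins (hnRNPs), 12 SNRP genes, 7 SNRNP genes, 9 SF3A and SF3B genes, 11 SRSF genes, 12 PRPF genes, and the 3 genes U2AF1, U2AF2 and KHDRBS1.

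The libraries were labelled as ChIRP, a method in which biotinylated antisense DNA probes retrieve an RNA with whatever is crosslinked to it. In 3 libraries the probe set was against SNHG10, a long noncoding RNA, and came from RiboBio. In the 3 control libraries it was against LacZ, a gene of bacteria with no human counterpart, and came from Millipore. The maker of the probes moved with the group, so the target and the maker cannot be told apart. All 6 libraries came from the same line, with no treatment or genetic change named in the labels. The series asks which mRNAs SNHG10 binds, so a retrieved mRNA would be higher with SNHG10 probes than with LacZ probes. The labels' extraction protocol describes total RNA taken with Trizol and is silent on any pull-down, whereas the series' design text speaks of retrieved RNA. Which RNA fraction was sequenced is not settled by the sources used here. SNHG10 itself was not analysed here, so the recovery of the target was not checked.

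Pre-mRNA splicing is carried out by the spliceosome, which is built on each intron from small nuclear ribonucleoproteins (snRNPs) and many other proteins. The U1 snRNP recognises the start of the intron, U2AF and the U2 snRNP recognise its end and its branch point, and the U4/U6.U5 tri-snRNP then joins and is rearranged into the catalytic form. SR proteins mostly favour the use of nearby splice sites, and hnRNPs, which coat nascent transcripts, often oppose it. These proteins are abundant in dividing cells, and the mRNAs of many of them are themselves spliced into several forms.

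Values are FPKM, fragments scaled by transcript length and by the mapped fragments of the library, summed over the transcript rows of each gene. They can be compared between genes because they are per length, but each is a share of its library and carries no read count. The depth is therefore unknown, and no counting interval was given. Differences are the mean of SNHG10 libraries minus that of LacZ libraries on the log2(FPKM + 1) scale, on which changes of weakly detected genes look smaller than they are. They were tested with limma over all genes or rows that reached 1 FPKM in 3 or more libraries, and p-values were adjusted by Benjamini-Hochberg with calls made under 0.05. The labels do not say that replicates were separate cultures, so the p-values reflect library-to-library spread alone and that spread may be technical.

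The libraries were close in their FPKM totals, from 268794 to 277118. Of the marker genes of the line, VIM, a mesenchymal filament gene, lay between 833 and 1522 FPKM and KRT18, an epithelial keratin gene, between 945 and 1122 FPKM. The hepatocyte genes SERPINA1 and CPS1 reached no more than 1.24 and 1.53 FPKM, and ALB, APOA1 and TTR had no row and were not analysed here. FN1, a mesenchymal matrix gene, lay between 103 and 152 FPKM and CDH2, the mesenchymal cadherin, between 0.804 and 2.74 FPKM, while the epithelial genes EPCAM and CDH1 had no row. The endothelial gene ENG lay between 30.7 and 41.8 FPKM, and PECAM1, VWF and CDH5 had no row. The leukocyte gene CD68 lay between 35.3 and 54.4 FPKM and CD14 between 0.763 and 2.69 FPKM, while PTPRC had no row. VIM, KRT18, FN1, CDH2, ENG, SERPINA1, CD68 and CD14 overlapped between the probe sets. KRT8, the partner keratin of KRT18, did not, at 465 to 549 FPKM with SNHG10 probes and 589 to 633 FPKM with LacZ probes, nor did CPS1, at 0.505 to 0.796 FPKM against 0.883 to 1.53 FPKM. The part of any of these markers in the results was not tested.

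None of the 75 splicing genes differed between the probe sets at the threshold. The smallest adjusted p among them was 0.885 (limma, n = 3 against 3). Over all 10304 genes tested, 0% were called higher and 0% lower, so the count among the splicing genes was the same as the background. At an unadjusted p under 0.05, no splicing gene was higher and 6 (8%) were lower with SNHG10 probes, against 2.1% and 3.32% of all genes. These 6 were HNRNPD, HNRNPH3, HNRNPLL, HNRNPUL1, SF3B1 and SF3B5. By rank alone, 2 genes (2.67%) had all 3 SNHG10 libraries above all 3 LacZ libraries and 9 (12%) had all 3 below, against 4.22% and 7.21% of all genes tested.

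The direction was uneven and small. The difference was positive in 27 splicing genes and negative in 48, with a median of -0.14, while over all genes it was positive in 4458 and negative in 5846, with a median of -0.05. Scaling each library by its median ratio to the others brought the median of all genes to -0.0027, and the splicing genes then split into 30 positive and 45 negative with a median of -0.08. Under that scaling 3 genes (4%) stood fully above and 6 (8%) fully below, against 5.69% and 5.34% of all genes. The single differences ran from -0.99 in SRSF7 to 0.42 in SRSF1, and in neither gene did the libraries separate.

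The splicing genes were measured with less spread than most. Their mean FPKM had a median of 30.0, against 7.80 for all genes tested, and ran from 1.32 for SNRNP48 to 250 for HNRNPA1. All 75 passed the filter on low values. Between replicates the median SD was 0.33 in log2 units, against 0.40 for all genes. The hnRNP, SNRP and SF3 classes lay under 0.40, and the other classes lay at or above it. The 95% interval of the difference lay wholly within 2-fold in either direction for 50 of the 75 (66.7%), against 44.3% of all genes. For the other 25, a 2-fold difference was inside the interval. Together the splicing mRNAs made up 1.20%, 1.10% and 1.13% of all FPKM with SNHG10 probes, against 1.20%, 1.18% and 1.23% for LacZ. The first SNHG10 library lay among the LacZ libraries in this share, and the others lay below them.

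**Figure D1:**
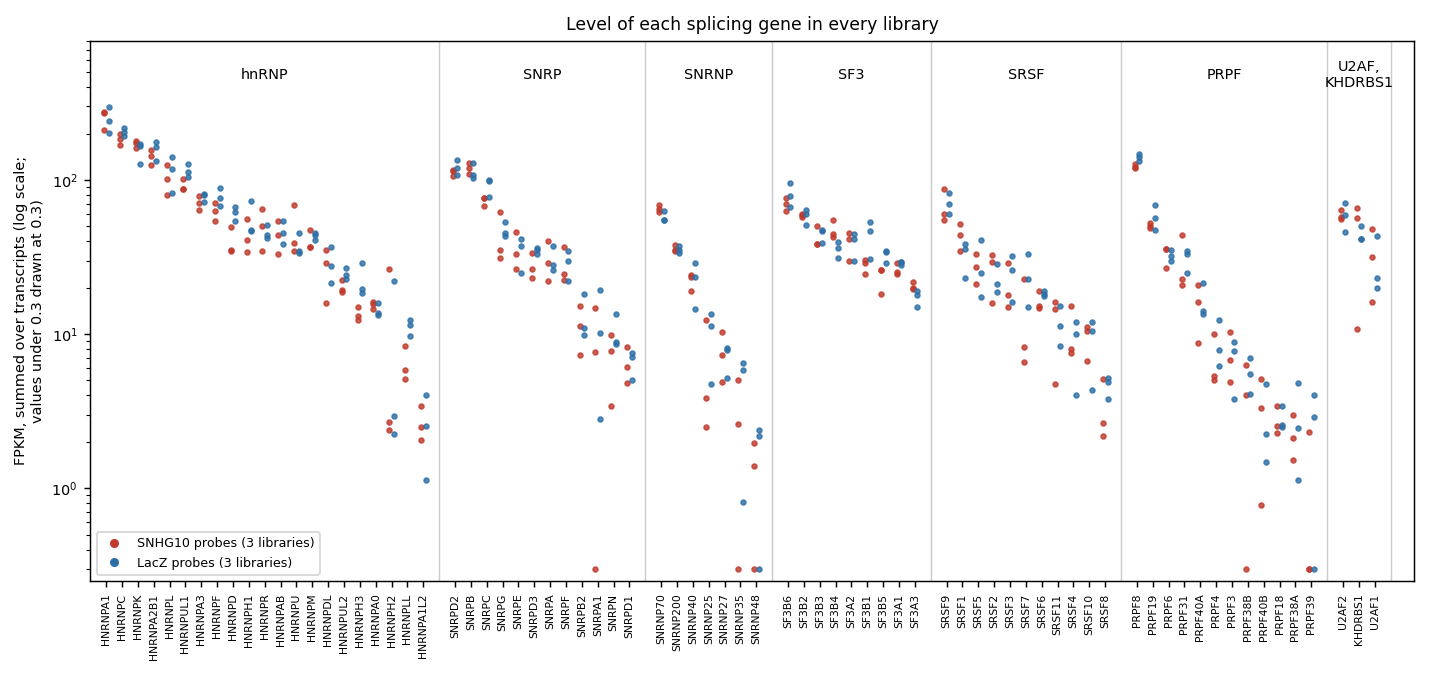
FPKM of each of the 75 splicing genes (log scale, summed over transcripts) in 3 SNHG10 (red) and 3 LacZ (blue) libraries, grouped by class and ordered by mean. The colours intermingle in most genes, levels run from HNRNPA1 down to SNRNP48, and the points at the bottom edge are libraries listed at 0.

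**Figure D2:**
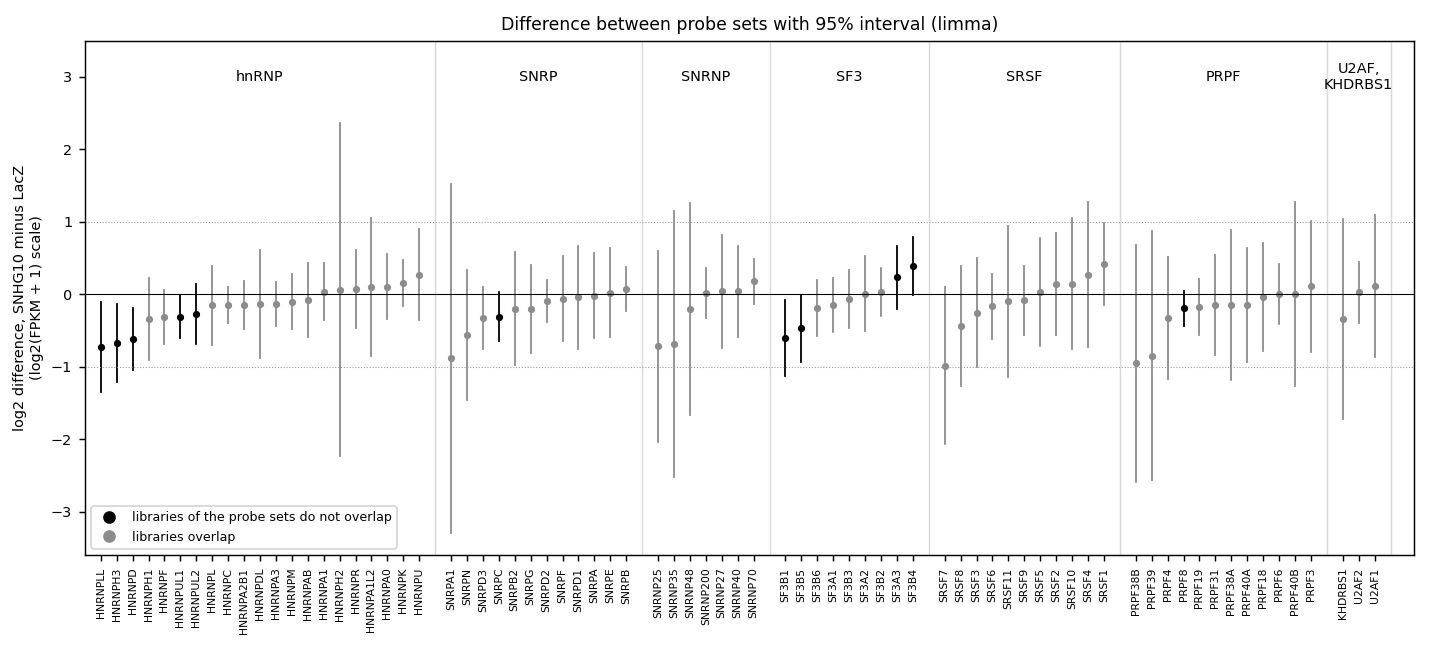
Difference between probe sets for each splicing gene on the log2(FPKM + 1) scale with its 95% limma interval, ordered within class; black marks the 11 genes whose libraries did not overlap. Points lie between -0.99 and 0.42, and the dotted lines mark 2-fold.

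The hnRNPs were the highest class in level. Of the 21 hnRNP genes, 5 stood fully lower, where 7.21% of all genes tested did, and none was called. HNRNPA1, which binds exonic and intronic silencers and opposes SR proteins, was the highest splicing mRNA at 277, 272 and 209 FPKM with SNHG10 probes and 298, 243 and 203 FPKM with LacZ probes. HNRNPC, which coats uridine-rich stretches of nascent RNA, followed at 199, 169 and 184 FPKM against 193, 216 and 203 FPKM. HNRNPK, a KH-domain protein that binds cytidine-rich RNA, gave 173, 162 and 178 FPKM against 165, 126 and 172 FPKM. These top levels overlapped between the probe sets in each gene. The intervals of HNRNPA1, HNRNPC and HNRNPK stayed within 2-fold. The lowest was HNRNPA1L2, an HNRNPA1-like gene, at 2.05, 3.39 and 2.49 FPKM against 1.13, 2.53 and 4.01 FPKM. Its reads cannot be told apart with certainty from those of HNRNPA1, and the sum of both genes overlapped between the probe sets (exact permutation p = 0.9, two-sided). In this class 7 differences were positive and 14 negative, under either scaling. Their median was -0.14 on the deposited scale and -0.08 with median-ratio scaling. On the deposited scale 5 genes stood fully lower with SNHG10 probes and none fully higher.

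Those 5 were HNRNPD, HNRNPH3, HNRNPLL, HNRNPUL1 and HNRNPUL2. HNRNPD (hg19 chr4:83273651-83295656, minus strand), also known as AUF1 and a regulator of mRNAs with AU-rich elements, was at 34.4, 35.0 and 49.6 FPKM with SNHG10 probes and at 54.5, 61.7 and 66.4 FPKM with LacZ probes. The highest SNHG10 library thus came near the lowest LacZ library without reaching it. The means were 39.7 ± 8.63 and 60.9 ± 5.98 FPKM (SD, n = 3 each), a log2 difference of -0.62 ± 0.19 (SE; 95% interval -1.05 to -0.19). With limma the adjusted p was 0.885.

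HNRNPH3 (chr10:70091832-70102944, plus strand), of the family that binds runs of guanosines, was at 13.1, 12.3 and 15.0 FPKM against 19.7, 18.5 and 28.9 FPKM. Its log2 difference was -0.67 ± 0.23 (SE; limma adjusted p = 0.885). PBLD lies on the opposite strand at this locus and was listed at no more than 1.69 FPKM. HNRNPLL (chr2:38789120-38830171, minus strand), known for controlling alternative exons of CD45 in lymphocytes, was at 8.32, 5.83 and 5.13 FPKM against 11.5, 9.77 and 12.3 FPKM. Its log2 difference of -0.73 ± 0.27 (SE; limma adjusted p = 0.885) was the most negative of the separated genes.

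HNRNPUL1 and HNRNPUL2 encode relatives of hnRNP U. HNRNPUL1 (chr19:41768401-41813503, plus strand) was at 87.9, 87.4 and 101 FPKM against 104, 113 and 127 FPKM, so that a narrow gap parted the probe sets (log2 difference -0.31 ± 0.13, SE; limma adjusted p = 0.885). HNRNPUL2 (chr11:62480102-62494821, minus strand) was at 22.5, 19.3 and 18.6 FPKM against 24.0, 22.8 and 27.0 FPKM (log2 difference -0.28 ± 0.18, SE; limma adjusted p = 0.928). With median-ratio scaling HNRNPUL2 overlapped.

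HNRNPH2, named after its values were seen, shows a split that crossed the groups. It was at 26.3, 2.68 and 2.39 FPKM with SNHG10 probes and at 22.1, 2.26 and 2.95 FPKM with LacZ probes, so the replicate 1 library was high in both probe sets. Its near relative HNRNPH1 did not show that split, and the sum of both genes gave 81.8, 43.6 and 36.5 FPKM against 69.5, 48.6 and 76.2 FPKM (exact permutation p = 0.7).

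The SNRP genes encode the Sm proteins that ring the snRNA of most snRNPs, and proteins particular to U1 and U2. SNRPD2, a Sm ring protein, was at 107, 115 and 115 FPKM with SNHG10 probes and 135, 120 and 107 FPKM with LacZ probes. SNRPB, another ring protein, was at 128, 110 and 119 FPKM against 103, 129 and 107 FPKM. SNRPD1, also of the ring, was the lowest of the class at 6.09, 4.80 and 8.27 FPKM against 5.02, 7.09 and 7.55 FPKM. The mRNA levels of proteins that share a ring therefore spread widely, while the probe sets overlapped in each of these. SNRPD3, SNRPE, SNRPF and SNRPG, the rest of the ring, ranged from 22.3 to 62.1 FPKM over all libraries, again with overlap.

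SNRPC (chr6:34725183-34741571, plus strand), the U1-C protein that steadies U1 on the intron start, was the separated gene of this class. It was at 76.3, 76.1 and 67.8 FPKM with SNHG10 probes and at 99.9, 98.0 and 77.1 FPKM with LacZ probes. The third LacZ library nearly met the SNHG10 libraries. The log2 difference was -0.31 ± 0.15 (SE; limma adjusted p = 0.885), and with median-ratio scaling the groups overlapped. Over the 12 SNRP genes, 2 differences were positive and 10 negative, or 4 and 8 with median-ratio scaling. The median was -0.15 on the deposited scale and -0.09 with median-ratio scaling.

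The SNRNP genes include SNRNP70 of U1, SNRNP200 and SNRNP40 of U5, and the minor spliceosome proteins SNRNP25, SNRNP35 and SNRNP48, which serve a small class of introns. SNRNP70 was at 64.9, 68.6 and 62.1 FPKM with SNHG10 probes and at 55.3, 62.9 and 54.6 FPKM with LacZ probes. The lowest SNHG10 library lay just under the highest LacZ library, and with median-ratio scaling the groups separated (log2 difference on the deposited scale 0.18 ± 0.13, SE; limma adjusted p = 0.928). SNRNP200, the helicase that unwinds U4 from U6, had the smallest ratio of highest to lowest library of the 75 splicing genes, at 37.9, 34.5 and 35.1 FPKM against 35.3, 37.4 and 33.3 FPKM. SNRNP40, a WD-repeat protein of U5, was at 24.2, 19.2 and 23.3 FPKM against 23.3, 14.5 and 29.1 FPKM. Of the minor spliceosome genes, SNRNP25 had a mean of 8.05 FPKM over all libraries and SNRNP35 of 3.47 FPKM. SNRNP48, the lowest splicing gene, was at 1.96, 1.38 and 0 FPKM against 0, 2.37 and 2.19 FPKM. A 0 in these tables can be a failed estimate, and 1 library of each probe set held one. Of the 7 SNRNP genes, 4 differences were positive and 3 negative, and no gene separated.

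SF3A and SF3B bind the U2 snRNP and hold it on the branch point, and their genes differed in direction. SF3B6, which sits at the branch adenosine, was highest at 76.7, 70.3 and 63.3 FPKM against 79.1, 95.6 and 67.0 FPKM. SF3B2, a large subunit that contacts RNA near the branch point, was at 59.5, 57.5 and 60.6 FPKM against 50.7, 60.2 and 63.7 FPKM. SF3B3, a scaffold subunit, was at 38.3, 38.6 and 50.5 FPKM against 39.0, 47.4 and 46.8 FPKM. All 3 overlapped. Over the 9 genes, 4 differences were positive and 5 negative, with the smallest median spread within a probe set of any of the 6 larger classes (0.19 on the log2 scale).

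A pair of SF3B genes stood lower and another pair of SF3 genes higher. SF3B1 (chr2:198254508-198299815, minus strand), the subunit that clamps the branch helix and is often mutated in blood cancers, was at 28.7, 24.4 and 30.1 FPKM with SNHG10 probes and at 46.4, 30.9 and 53.3 FPKM with LacZ probes (log2 difference -0.60 ± 0.23, SE; limma adjusted p = 0.885). The second LacZ library lay close to the SNHG10 libraries, and with median-ratio scaling the groups overlapped. SF3B5 (chr6:144416018-144416710, minus strand), a small subunit, was at 26.0, 26.0 and 18.2 FPKM against 34.7, 28.9 and 34.0 FPKM (log2 difference -0.47 ± 0.20, SE; limma adjusted p = 0.885; -0.31 without the third SNHG10 library).

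SF3B4 (chr1:149895209-149900236, minus strand), an RNA-binding subunit that contacts the intron upstream of the branch point, was at 55.1, 42.5 and 44.6 FPKM with SNHG10 probes and at 36.4, 31.2 and 39.6 FPKM with LacZ probes. Every SNHG10 library was above every LacZ library, with a log2 difference of 0.39 ± 0.17 (SE; limma adjusted p = 0.885). SF3A3 (chr1:38422647-38456593, minus strand), of the SF3A trimer and the lowest gene of the class, was at 19.7, 21.9 and 19.97 FPKM against 18.0, 15.1 and 19.1 FPKM (log2 difference 0.23 ± 0.19, SE; limma adjusted p = 0.928; 0.14 without the second LacZ library). Both stayed separated with median-ratio scaling.

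The SRSF genes, which encode SR proteins, had a median spread between replicates of 0.48 on the log2 scale (SD), as did the PRPF genes. This was above the 0.33 of all splicing genes, and no SRSF gene separated. SRSF9, the highest, was at 87.1, 55.2 and 59.8 FPKM against 82.2, 69.4 and 60.4 FPKM. SRSF1, the founding SR protein and also a known oncogene product, was at 34.4, 51.8 and 44.1 FPKM against 35.8, 38.6 and 23.1 FPKM, and its log2 difference of 0.42 ± 0.24 (SE; limma adjusted p = 0.928) was the most positive of the splicing genes, and 0.20 without the third LacZ library. The first SNHG10 library lay below the first and second LacZ libraries in SRSF1. SRSF5 was at 33.0, 21.1 and 27.4 FPKM against 17.4, 25.1 and 41.0 FPKM. SRSF8, the lowest, was at 5.09, 2.17 and 2.65 FPKM against 3.81, 5.22 and 4.90 FPKM. SRSF7, named after its values were seen for its most negative difference, was at 22.7, 6.59 and 8.22 FPKM against 22.7, 15.0 and 32.8 FPKM (log2 difference -0.99 ± 0.47, SE; limma adjusted p = 0.885). The first library of each probe set was level in SRSF7. Of the 11 SRSF genes, 5 differences were positive and 6 negative.

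PRPF8 (chr17:1553923-1588176, minus strand), the scaffold that cradles the catalytic RNA core, was the highest PRPF gene at 122, 127 and 120 FPKM with SNHG10 probes and 132, 147 and 142 FPKM with LacZ probes. The groups did not overlap, also with median-ratio scaling, and the gap was small (log2 difference -0.19 ± 0.10, SE; limma adjusted p = 0.911). PRPF19, a ubiquitin ligase of the activated spliceosome, was at 52.2, 48.7 and 49.9 FPKM against 56.6, 47.3 and 68.8 FPKM. PRPF6, which bridges U5 to U4/U6, was at 35.7, 26.7 and 35.8 FPKM against 32.3, 29.9 and 35.0 FPKM. PRPF39, the lowest, was listed at 0, 0 and 2.32 FPKM against 2.88, 0 and 4.01 FPKM. It overlaps FKBP3 on the opposite strand, which lay between 12.8 and 28.9 FPKM, and whether strand was used in counting is not given in the sources used here. Of the 12 PRPF genes, 3 differences were positive and 9 negative, or 4 and 8 with median-ratio scaling. The median was -0.15 on the deposited scale and -0.099 with median-ratio scaling.

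U2AF2, the subunit that reads the polypyrimidine tract, was at 57.6, 55.7 and 63.9 FPKM with SNHG10 probes and at 46.0, 71.1 and 58.9 FPKM with LacZ probes (log2 difference 0.03 ± 0.18, SE; limma adjusted p = 0.992). U2AF1, which reads the AG at the intron end, was at 31.9, 16.2 and 48.2 FPKM against 43.0, 19.9 and 23.0 FPKM (log2 difference 0.11 ± 0.42, SE; limma adjusted p = 0.977). Its values are uncertain, because the near-identical copy U2AF1L5 can share its reads. U2AF1L5 was at 10.6, 51.1 and 13.0 FPKM against 4.28, 28.1 and 24.2 FPKM, and was high in the second library of each probe set, where U2AF1 was low. The sum of the copies was far more even in the LacZ libraries, at 47.3, 48.0 and 47.2 FPKM, and gave 42.5, 67.3 and 61.3 FPKM in the SNHG10 libraries (exact permutation p = 0.4).

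KHDRBS1 encodes Sam68, a STAR-family RNA-binding protein that links signalling to splice choice. The gene (chr1:32479430-32509483, plus strand) was at 65.3, 56.2 and 10.7 FPKM with SNHG10 probes and at 49.9, 41.6 and 41.1 FPKM with LacZ probes. The third SNHG10 library was far below all others and the other two were above all LacZ libraries. The log2 difference was -0.35 ± 0.60 (SE; limma adjusted p = 0.955), and it was 0.45 without the third SNHG10 library.

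**Figure D3:**
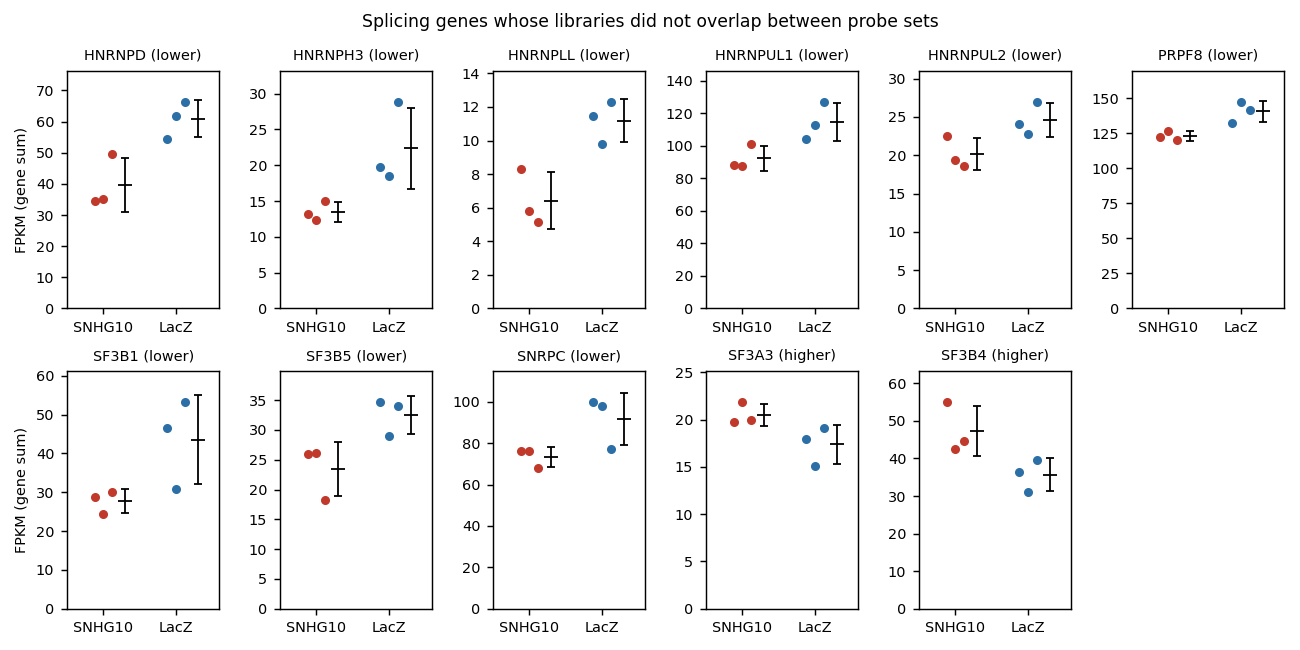
FPKM of the 11 splicing genes whose 3 SNHG10 libraries (red) all lay below or above the 3 LacZ libraries (blue), with mean and SD (black), each on an axis from 0. Of these, 9 were lower and 2 (SF3A3, SF3B4) higher with SNHG10 probes.

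At the level of transcript rows, 178 of the 256 rows passed the filter. None was called higher, against 0.0481% of the 16618 rows tested, and 1 (0.562%), KHDRBS1-204, was called lower, against 0.0421%. At an unadjusted p under 0.05, 6 rows (3.37%) were higher and 8 (4.49%) lower, against 2.59% and 3.06% of all rows. The probe sets did not overlap in 6 higher rows (3.37%) and 13 lower rows (7.3%), against 4.48% and 6.06%. These counts hold 5 rows that the filter itself selected, since they reached 1 FPKM in the 3 libraries of one probe set and in none of the other: KHDRBS1-204, HNRNPH3-202 and HNRNPLL-206 through LacZ and HNRNPAB-201 and HNRNPAB-205 through SNHG10. Such rows had to differ, so the counts are a description. With no filter, none of the 256 rows was called in either direction, against 0.0104% of the 28768 rows higher and 0.0104% lower. Without it 7 splicing rows (2.73%) stood fully higher and 14 (5.47%) fully lower, against 3.27% and 4.45%. Listed at 0 in all LacZ libraries and above 0 in all SNHG10 libraries were 2 rows (0.781%), and 2 (0.781%) were the reverse, against 0.574% and 0.657%.

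KHDRBS1-204 (ENST00000492989, chr1:32479597-32508225) was listed at 0 in all 3 SNHG10 libraries and at 20.5, 27.7 and 14.0 FPKM in the LacZ libraries. Its log2(FPKM + 1) difference was -4.39 ± 0.40 (SE; limma adjusted p = 0.0429), a size that depends on the pseudocount. The row entered the test only through the LacZ libraries in which it was high, and with no filter the limma adjusted p was 0.0528, so the call is not used as support. The other row of the gene, KHDRBS1-202, was at 65.3, 56.2 and 10.7 FPKM against 29.4, 13.9 and 27.1 FPKM. All of the KHDRBS1 signal was thus assigned to KHDRBS1-202 with SNHG10 probes, while KHDRBS1-204 held 41.1%, 66.5% and 34.1% of it with LacZ probes (difference -47.3 percentage points). The exact permutation p of this share was 0.1, the smallest possible. A row listed at 0 in all SNHG10 libraries and above 0 in all LacZ libraries must give that value, so it is not used as support. The call was also lost with a replicate block (limma adjusted p = 0.598), with a filter of 5 FPKM (0.0769) and with a pseudocount of 0.1 (0.0699) or 5 (0.0901). Leaving out any 1 SNHG10 library also ended it (0.155 to 0.212), and without any 1 LacZ library the row did not pass the filter. It was kept with median-ratio scaling (0.0426) and without the intensity trend (0.0207).

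HNRNPH3-202 had the same form as KHDRBS1-204, and likewise passed the filter through LacZ libraries alone. It was listed at 0 with SNHG10 probes and at 5.38, 4.43 and 7.89 FPKM with LacZ probes (log2 difference -2.76 ± 0.40, SE; limma adjusted p = 0.417 with no filter and 0.112 with it). HNRNPH3-201, the other row, was at 13.1, 12.3 and 15.0 FPKM against 14.3, 14.1 and 21.0 FPKM and overlapped. The separation of the gene sum of HNRNPH3 thus came with the row listed at 0 in one probe set.

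HNRNPAB, whose protein packages mRNA in the nucleus, had rows that ran in opposite directions. HNRNPAB-205 was at 3.99, 6.36 and 7.29 FPKM with SNHG10 probes and listed at 0 in all LacZ libraries (log2 difference 2.75 ± 0.40, SE; limma adjusted p = 0.422 with no filter and 0.113 with it). HNRNPAB-201 was at 3.81, 2.64 and 32.9 FPKM and likewise listed at 0 in all LacZ libraries (limma adjusted p = 0.781 with no filter and 0.564 with it). Both rows passed the filter through SNHG10 libraries alone. HNRNPAB-202 and HNRNPAB-204 lay lower with SNHG10 probes, at 9.17, 11.98 and 12.6 FPKM against 15.1, 14.8 and 19.8 FPKM and at 16.0, 23.1 and 1.28 FPKM against 23.3, 39.2 and 25.4 FPKM. The gene sum was at 33.0, 44.1 and 54.1 FPKM against 38.4, 54.0 and 45.3 FPKM and overlapped, while its rows ran in both directions. The share of HNRNPAB-201 was 26.2 percentage points higher with SNHG10 probes, but 8.77 points without the third SNHG10 library. In that library alone HNRNPAB-201 stood above HNRNPAB-204.

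Other rows with the smallest p in either direction were these. HNRNPLL-206 was at 0.866, 0 and 0 FPKM against 8.26, 5.60 and 8.03 FPKM (log2 difference -2.74 ± 0.46, SE; limma adjusted p = 0.436 with no filter and 0.160 with it), and HNRNPLL-209, the other main row, at 6.51, 2.61 and 3.76 FPKM against 3.20, 4.17 and 4.28 FPKM. HNRNPD-203 was at 9.09, 15.3 and 8.77 FPKM against 18.6, 49.2 and 30.6 FPKM (limma adjusted p = 0.557). Its partner HNRNPD-201 ran the other way, at 25.3, 7.98 and 16.2 FPKM against 8.87, 1.11 and 2.54 FPKM with 1 pair of libraries crossing (log2 difference 1.93 ± 0.68, SE; limma adjusted p = 0.80), and held 43.0% of the gene on average against 7.30%. HNRNPD-202 was at 0, 0 and 10.04 FPKM against 19.7, 11.4 and 19.7 FPKM. HNRNPK-205, a minor row of its gene, was at 4.96, 8.81 and 6.14 FPKM against 12.7, 27.1 and 14.7 FPKM (limma adjusted p = 0.580). HNRNPLL-206, HNRNPD-202, HNRNPD-203 and HNRNPK-205 were lower in every SNHG10 library.

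In the other direction, HNRNPUL1-219 was at 5.59, 3.36 and 12.2 FPKM with SNHG10 probes and at 0, 0 and 1.54 FPKM with LacZ probes (limma adjusted p = 0.447), against the direction of its gene sum. HNRNPH1-204 was at 5.22, 7.62 and 15.7 FPKM against 0.0332, 4.66 and 0.328 FPKM (limma adjusted p = 0.763). U2AF2-201 was at 10.1, 10.04 and 9.01 FPKM against 0, 6.65 and 0 FPKM (limma adjusted p = 0.782). These rows belonged to genes whose sums overlapped or were lower, and U2AF2-201 made up 16.6% of its gene on average with SNHG10 probes and 3.12% with LacZ probes.

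**Figure D4:**
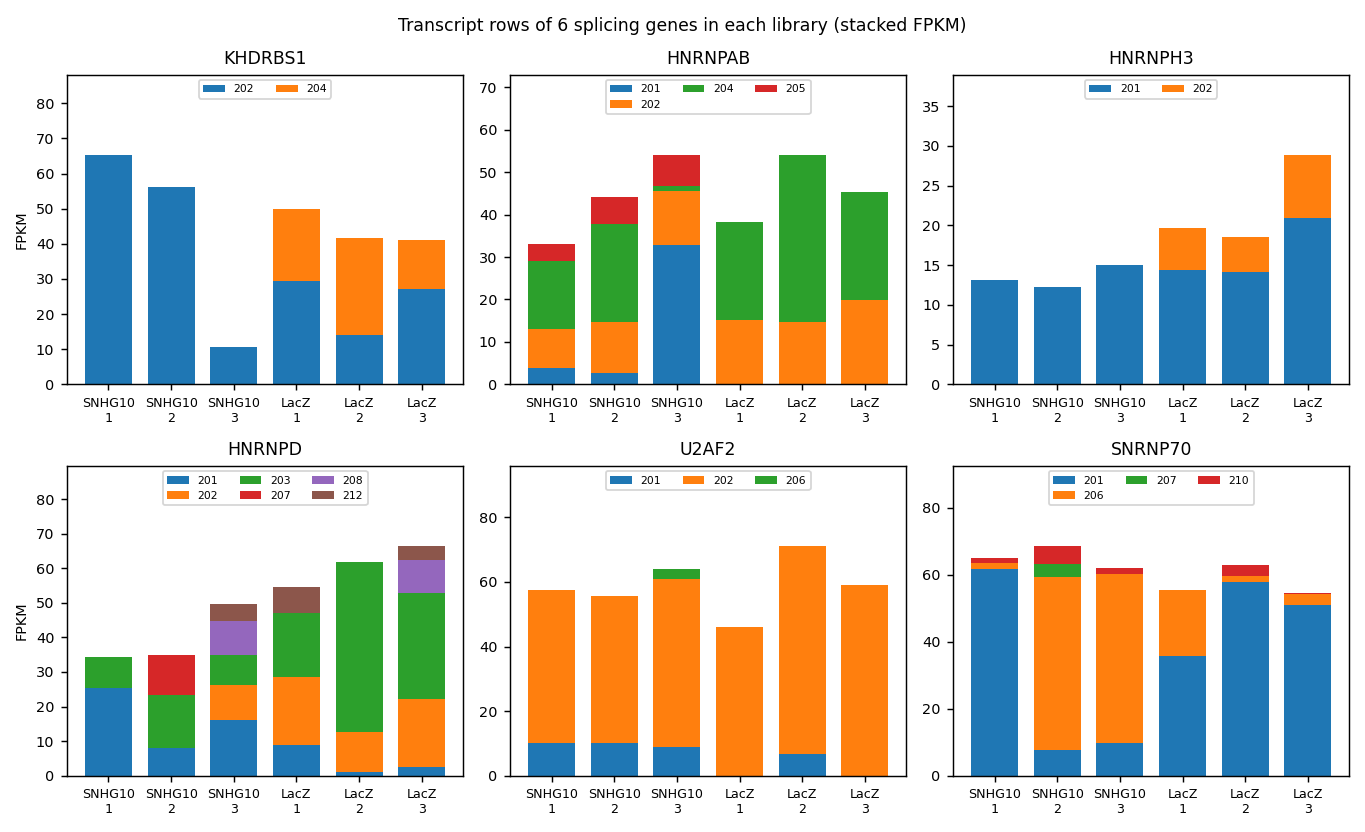
Stacked FPKM of the transcript rows of 6 splicing genes in each library. KHDRBS1-204 and HNRNPH3-202 appear only in LacZ columns, HNRNPAB-201 and HNRNPAB-205 only in SNHG10 columns, and the SNRNP70 rows trade places between replicates of the same probe set.

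The split of a gene between its rows was less steady than the gene sum, in the splicing genes as over all genes tested. Of the 51 splicing genes with at least 2 rows, 23 (45.1%) had the same leading row in all 6 libraries, against 29.1% of 6343 genes tested. The leading row changed among the SNHG10 replicates in 22 and among the LacZ replicates in 20, against 3334 and 3296 of the 6343 genes. The median coefficient of variation over the 6 libraries was 22.9% for the gene sum and 34.4% for the row with the highest mean. Over the 6343 genes these were higher, at 30.5% and 46.4%. SNRNP70, whose sum varied little, shows this. SNRNP70-201 was at 61.7, 7.57 and 9.66 FPKM with SNHG10 probes and at 35.7, 57.9 and 51.0 FPKM with LacZ probes, and SNRNP70-206 at 1.75, 51.9 and 50.5 FPKM against 19.7, 1.84 and 3.29 FPKM. Which SNRNP70 row led thus changed between replicates of the SNHG10 probe set.

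Few of the gene sums that separated did so in their main row. Of the 11 separated splicing genes, 8 had at least 2 rows, and the leading row separated by itself in 1 of them, HNRNPD (12.5%, against 28.0% of 744 separated genes overall). In SF3B1, SF3B1-201 was at 18.6, 16.3 and 22.9 FPKM against 19.4, 21.3 and 27.6 FPKM and overlapped, and SF3B1-202, SF3B1-204 and SF3B1-205 were listed at 0 in all SNHG10 libraries and in some LacZ libraries. In SF3B4, SF3B4-201 overlapped at 33.2, 42.5 and 43.6 FPKM against 36.4, 31.2 and 39.0 FPKM, and SF3B4-202 was at 21.9, 0 and 0.972 FPKM against 0, 0 and 0.643 FPKM. HNRNPUL2, SF3A3 and SF3B5 had 1 row each, so their values rest on no split between rows. Over all splicing rows, 27.0%, 28.1% and 28.5% were listed at 0 in the SNHG10 libraries, against 25.8%, 26.2% and 23.0% in the LacZ libraries, so zeros were more frequent in each SNHG10 library. Over all listed rows the shares were 32.6%, 33.8% and 32.1% against 32.5%, 32.0% and 30.5%, which overlapped but also leaned to SNHG10. The part of the zeros in the lower sums was not tested.

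The genes were spread over the genome, with 13 on chromosome 1 (17.3%, against 10.2% of all listed genes) and 9 on chromosome 19 (12%, against 7.26%). The median number of rows per gene was 2, as for all listed genes. HNRNPC had the most with 22 rows.

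Other splicing genes, from lists of core and tri-snRNP proteins, splicing regulators and snRNP assembly factors, were compared in the same way. Of 109 names, 104 were listed and tested, and none was called with limma (smallest adjusted p 0.864). Their differences were positive in 45 and negative in 59, or 52 and 52 with median-ratio scaling. The median was -0.06 on the deposited scale. Libraries separated upward in 3 (2.88%) and downward in 11 (10.6%), against 4.22% and 7.21% of all genes tested. By list, 21 of 51 core genes, 17 of 39 regulators and 7 of 14 assembly factors were positive.

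RBM22, of the activated spliceosome, was at 10.01, 12.3 and 5.83 FPKM with SNHG10 probes and at 0, 7.38 and 0.382 FPKM with LacZ probes (limma adjusted p = 0.885). DHX15, the helicase that takes spent spliceosomes apart, was at 27.3, 24.4 and 28.0 FPKM against 17.5, 23.2 and 17.1 FPKM (log2 difference 0.45 ± 0.19, SE; limma adjusted p = 0.885). DHX15 was higher in every SNHG10 library, and RBM22 overlapped.

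RBM5, a splicing regulator linked to apoptosis, was at 7.30, 6.60 and 2.12 FPKM with SNHG10 probes and at 10.6, 21.3 and 19.5 FPKM with LacZ probes (log2 difference -1.59 ± 0.45, SE; limma adjusted p = 0.864). U2SURP, a U2-associated SR-like protein, was at 1.65, 3.23 and 4.85 FPKM against 20.4, 5.73 and 17.3 FPKM (log2 difference -1.78 ± 0.51, SE; limma adjusted p = 0.867). SNW1, of the activated spliceosome, was at 16.2, 18.0 and 11.8 FPKM against 29.1, 22.3 and 26.5 FPKM (log2 difference -0.73 ± 0.22, SE; limma adjusted p = 0.885). All 3 were lower in every SNHG10 library, and none passed the threshold.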

How the data were processed

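RNA was measured in 3 SNHG10 and 3 LacZ probe libraries, grouped by their labels. Per the file headers, the values the authors deposited are FPKM, one per transcript. The submitters' processing notes name Bowtie2 2.1.0 and the build hg19. The program that made the FPKM is not given in the sources used here.

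FPKM were summed per gene symbol, and limma 3.58.1 in R 4.3.3 (lmFit, eBayes with an intensity trend) was fitted to log2(FPKM + 1) of 10304 genes and, separately, 16618 transcript rows. Tests were two-sided. Shares and sums of copies were compared by exact permutation over the 6 libraries, with a smallest p of 0.1. The fit was also run on values shuffled between libraries with known changes added. Its recovery of such changes is not reported here.

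Members and lists were chosen with earlier results of these data known. Genes and rows were named where they passed the threshold, where the groups did not overlap, as the 3 highest and the lowest mean of a class, and as KHDRBS1, U2AF1 and U2AF2. Of rows, the 5 with the smallest p per direction among those separated were named, and of the other splicing genes the 3 with the smallest p per direction; 1 gene that this rule names is not reported here. HNRNPH2, SRSF7 and the partner rows of named rows were added after their values were seen. Alternatives changed the filter, pseudocount, scaling, trend, replicate block and libraries.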

Additional observations from a re-analysis of the deposited data

How the results depend on the processing

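No splicing gene was called under any alternative fitted. Of the splicing rows, 0 were called lower with a replicate block, with no filter, with at least 5 FPKM and with a pseudocount of 0.1 or 5, and 0 in each fit that left out 1 library; without the intensity trend 2 were called lower (KHDRBS1-204 and HNRNPH3-202, limma adjusted p = 0.0407) and 1 higher (HNRNPAB-205, 0.0430). All of these rows passed the filter only through the probe set in which they were high, so the calls are not used as support. Over all 16618 rows tested, 53 were called without the trend. With at least 5 FPKM, 3 of 122 splicing rows stood fully higher and 11 fully lower. The share over all rows was not computed for that filter, so these counts are a description. The replicate numbers do not pair the libraries (correlations of same-numbered deviations 0.0151, 0.0121 and 0.0161), although each library correlated best with its own number, and the replicate block called 0 splicing genes. Counts of fully separated genes are not given for the fits that left out 1 library. Fewer libraries have to be parted there, and the share over all genes was not computed. Median-ratio scaling turned SNRPD1 to 0.0089. Leaving out 1 library turned the sign of small log2 differences, which ranged from -0.10 to 0.17 for HNRNPA1, -0.22 to 0.39 for HNRNPA1L2, -0.80 to 0.45 for KHDRBS1, -0.065 to 0.14 for PRPF6, -0.065 to 0.098 for SF3B2, -0.020 to 0.061 for SNRNP200, -0.23 to 0.25 for SNRNP40, -0.77 to 0.27 for SNRNP48, -0.22 to 0.12 for SNRPD1, -0.25 to 0.34 for SRSF5, -0.28 to 0.042 for SRSF9, -0.24 to 0.52 for U2AF1 and -0.13 to 0.18 for U2AF2. The cause was not tested. With no counts deposited, depth limits low rows in a way that could not be measured.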
